A study of Sus scrofa with 55 samples.

Results

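The comparison covers 22 single pig oocytes, 11 taken from antral follicles of stage 4 and 11 from antral follicles of stage 3, out of 55 oocytes of 5 antral stages measured in all. They were chosen by their labelled stage alone. The cytoplasmic RNA of each oocyte was turned into full-length cDNA by the Smart-seq2 protocol after the nuclear DNA had been spun down. All oocytes were wild type and came from 4 pubertal gilts (young female pigs, Landrace and Yorkshire) of 208 to 210 days. Every gilt, and so both stages, had received an intraperitoneal dose of PMSG (5 IU; pregnant mare serum gonadotropin), a hormone that drives antral follicle growth, 48 h before the ovaries were dissected. The sources used here do not say which follicle size each stage number stands for.

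The animal is the replicate. Gilts 201, 205, 801 and 803 gave 4, 2, 1 and 4 oocytes at stage 3 and 1, 2, 4 and 4 at stage 4, so the stage 3 value of gilt 801 and the stage 4 value of gilt 201 each rest on a single cell. The raw counts of a gilt's oocytes were added up within each stage, and stage 4 was compared with stage 3 within gilts. Oocytes with more counts weigh more in such a sum. At stage 4 the 4 oocytes of gilt 801 held 1200800, 19933267, 36897623 and 3567202 counts of nuclear-encoded genes. At stage 3 those of gilt 803 held 5453035, 25605046, 7961552 and 3332099. Total counts per oocyte ran from 6144008 to 26202787 at stage 3 (median 13661687) and from 8153435 to 38282850 at stage 4 (median 12998378). Levels are CPM, the share of a library's counts on the usual scale of parts per 1000000, scaled by trimmed-mean (TMM) factors. Fitted changes are log2 values of stage 4 over stage 3. The standard error given with each was worked out as its absolute size divided by the square root of the test's F value.

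An antral follicle is one that has opened a fluid-filled cavity, and its oocyte sits in a mound of cumulus cells that feed it through gap junctions. The oocyte is held in meiotic prophase, with a large nucleus called the germinal vesicle, until a hormone surge lets it divide. During antral growth it fills its cytoplasm with maternal mRNA and proteins, and then slows and stops transcription, so that maturation and the earliest cleavage divisions run on stored messages. The later antral stages are the window in which an oocyte gains the ability to mature, which is the question a comparison of neighbouring stages addresses.

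Before the genes, the 2 sets of oocytes were compared as libraries. All 14 oocyte markers had counts at both stages, but their summed level spanned 444 to 226563 CPM of nuclear-encoded counts at stage 3 (median 48656) and 207 to 172683 CPM at stage 4 (median 42894). Granulosa and cumulus markers, 21 of 23 of which had counts at each stage (AMH and KRT8 were at 0 at stage 3, AMH and KRT18 at stage 4), summed to 204 to 29112 CPM at stage 3 and 93.3 to 24067 CPM at stage 4. These markers held more counts than the oocyte markers in 3 oocytes at stage 3 and 4 at stage 4, all of gilt 803. Those 7 libraries are called granulosa-rich below, and the changes that depend most on them are also given without them, which leaves 3 gilts.

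Theca and stroma markers summed to 27.9 to 1647 CPM at stage 3 and 33.3 to 1542 CPM at stage 4, where CYP17A1 and DES were at 0. Blood, immune and endothelial markers summed to 18.5 to 897 CPM and 43.4 to 673 CPM, and C1QA, CD163 and NKG7 were at 0 at stage 4. The marker list with the largest difference was that of granulosa and cumulus cells, at -1.60 log2 units (stage 4 minus stage 3, mean of gilts), but the gilts did not share a direction. The difference was 0.18 in gilt 201, -3.43 in gilt 205, -4.80 in gilt 801 and 1.65 in gilt 803, with p = 0.248 in an exact two-sided permutation of oocytes within gilts.

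The mitochondrially encoded share of counts was 59.3% ± 26.2 at stage 3 and 52.7% ± 37.3 at stage 4 (SD, n = 4 gilts). The exact permutation of oocytes within gilts gave p = 0.701. The difference in points was 0.78 in gilt 201, 1.55 in gilt 205, -4.79 in gilt 801 and -23.9 in gilt 803. Over single oocytes the medians were 73.9% and 9.05%, because 2 of the 4 stage 4 oocytes of gilt 801 and all 4 of gilt 803 lay below 10%. Genes detected at an equal depth of 500000 nuclear-encoded counts numbered 8103 ± 1994 at stage 3 and 9383 ± 1412 at stage 4 (SD, n = 4 gilts). The exact permutation of oocytes within gilts gave p = 0.202 for this measure. The difference in genes, stage 4 minus stage 3, was 4610, 1431, 551 and -1471 in gilts 201, 205, 801 and 803. Of 7 library measures tested, no p adjusted over the 7 by Benjamini-Hochberg was below 0.869 in this exact permutation test.

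**Figure D1:**
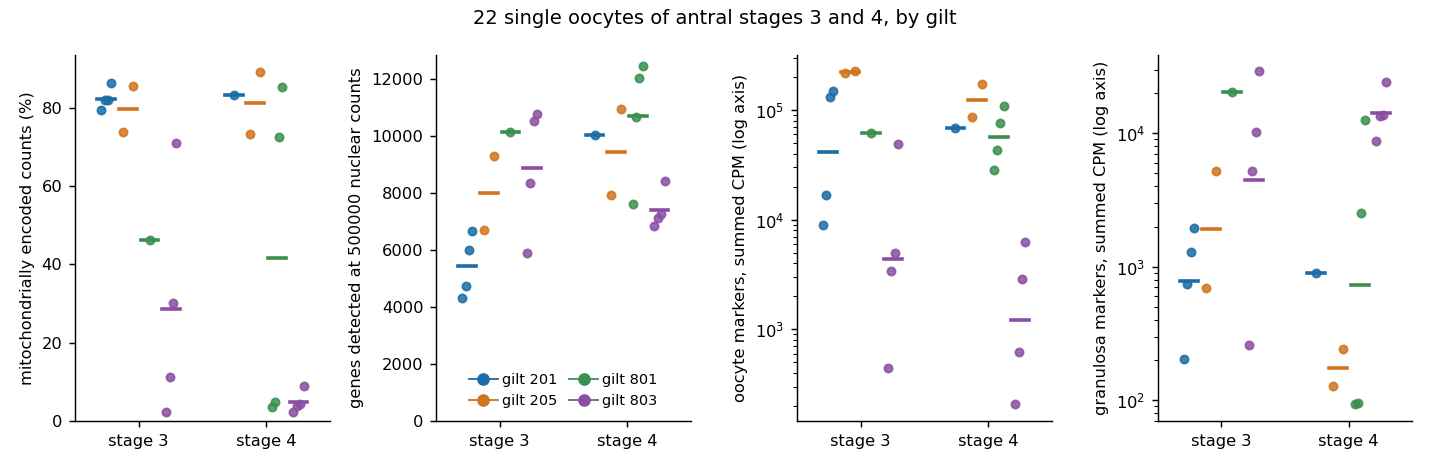
Each point is 1 oocyte at stage 3 or stage 4, coloured by gilt, and each short line is the mean of a gilt (of log2 values for the 2 marker panels). From left to right the axes give the mitochondrially encoded percent of counts, genes detected at 500000 nuclear-encoded counts, and the summed CPM of oocyte and of granulosa markers on log axes. The gilts spread widely within a stage, and the 4 stage 4 oocytes of gilt 803 are low in oocyte markers and high in granulosa markers.

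Across all genes, no gene passed the test. Of 15637 genes tested, 12634 with a symbol, 0 (0%) had an adjusted p under 0.05 in edgeR's quasi-likelihood test with Benjamini-Hochberg adjustment, and the smallest adjusted p was 0.998. At an unadjusted p under 0.05, 332 genes were higher at stage 4 (2.12% of those tested) and 314 lower (2.01%), 646 in all against 782 that a uniform spread of p-values would give. With library totals in place of TMM factors the split was 516 higher and 98 lower, and the median over all genes moved up by 0.70 log2, from -0.12 to 0.58. The gilts spread widely: the common biological coefficient of variation was 1.24, and the median standard error of a fitted change was 1.62 log2 units over all genes and 0.93 among those with a mean of at least 10 CPM. A change that misses the threshold at this spread is not shown to be absent.

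Some other ways of fitting gave calls. Without the low-count filter edgeR's quasi-likelihood test called 14 of 23035 genes at a Benjamini-Hochberg adjusted p under 0.05, 1 higher and 13 lower at stage 4. DESeq2, on the filtered genes, called 267, 186 higher and 81 lower, of which 122 had a change beyond 10 log2 units, and limma called 0. The single gene called higher without the filter was FICD. Those called lower were LGALS3BP, PDK4, STAR, APOA1, ST3GAL4, COX4I2, INHA, CTSV, OLR1, CD74, SLA-DQB1 and 2 genes without a symbol, ENSSSCG00000014540 and ENSSSCG00000036618. INHA (the inhibin alpha subunit), OLR1, CD74 and SLA-DQB1 were not reached by the rule for named genes and were picked out after their values were seen.

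A gene's direction was the same in all 4 gilts for 755 genes higher at stage 4 (4.83%) and 723 lower (4.62%). How many genes would share a direction, or not overlap between the stages, by chance was not tested. Both are given as descriptions only. Among the 5213 genes with a symbol and a mean of at least 10 CPM, 176 were higher and 443 lower in 4 of 4 gilts. These directions depend on the scaling, because the TMM factors were higher at stage 4 in each gilt. With library totals in their place, 662 of the 5213 were higher and 86 lower in 4 of 4 gilts, and over all genes tested 1676 were higher and 199 lower. Of the 89 genes picked by the rule for named genes, 17 were higher in every gilt with TMM factors, and all 17 were so with library totals. A further 33 were lower in every gilt with TMM factors, and 18 of these were so with library totals. The other 15 were TNFAIP8L3, PCED1B, TGFBI, STC1, CALM2, RPLP0, HADHB, LDHA, MRPS30, COX2, ND4L, PSMD14, GSTA4, CENPU and GDF9. Directions within gilts given below are those with TMM factors. The 4 values of stage 4 lay wholly above those of stage 3 for 189 genes (1.21%) and wholly below for 79 (0.505%). With TMM factors the genes of at least 10 CPM had a median change of -0.36 beside -0.12 over all genes, and 32.6% of them had a positive change beside 46.3% of all genes. Of these genes 3.25% were higher and 8.84% lower in 4 of 4 gilts. Every list below is read against these values. Of 32 role lists, 29 had a negative median. That of 22 of the 29 turned positive with library totals. That of 22 did so with the mean of log2 values over oocytes, which drops both the summing of counts and the TMM factors.

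**Figure D2:**
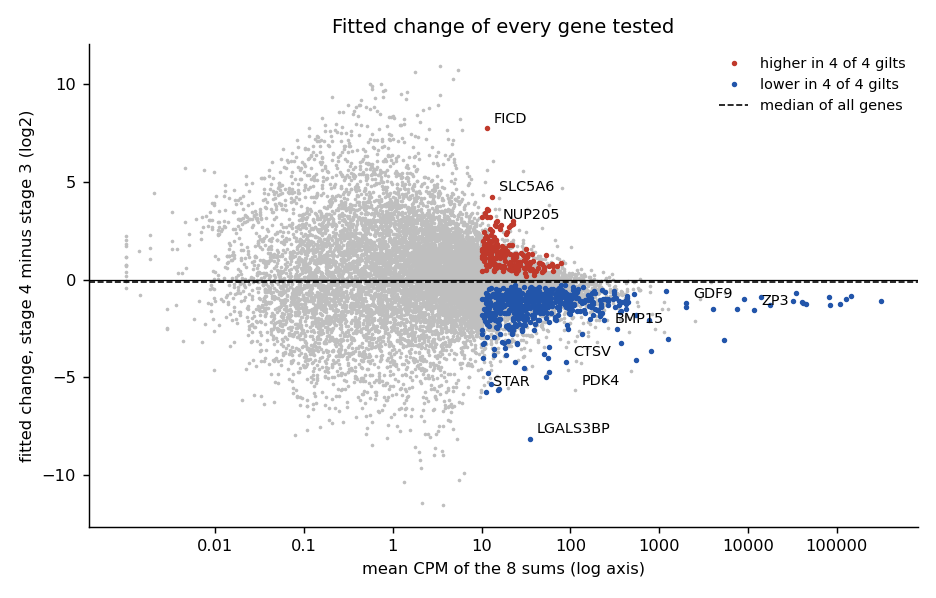
Each dot is 1 of the 15637 genes tested, placed by its mean CPM over the 8 gilt-by-stage sums (log axis) and its fitted change from stage 3 to stage 4 in log2 units. Red and blue dots are genes of at least 10 CPM that were higher or lower in 4 of 4 gilts, and the dashed line is the median of all genes at -0.12. Blue dots outnumber red ones and reach the most abundant transcripts, and the largest positive changes belong to genes of low mean level.

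FICD, the endoplasmic reticulum enzyme that attaches AMP to the chaperone BiP, had the most positive change among genes of one direction in every gilt. Its summed level was 0.384, 0, 0 and 0.0684 CPM at stage 3 and 70.1, 7.12, 1.13 and 12 CPM at stage 4, in gilts 201, 205, 801 and 803 in that order, which is kept for every gene below. All 4 stage 4 values lay above all 4 stage 3 values, yet the value in gilt 801 was only just above 1 CPM. The fitted change was 7.75 ± 2.37 (p = 0.00304, unadjusted, edgeR's quasi-likelihood test), a size that depends on how the values at 0 are treated. Of single oocytes, 0 of 11 at stage 3 reached 10 CPM against 4 of 11 at stage 4. Here and below, oocytes at 10 CPM and a single oocyte's share of CPM are reckoned on nuclear-encoded counts without TMM factors.

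NUP205, a scaffold protein of the inner ring of the nuclear pore, had levels of 0.769, 12.5, 1.58 and 4.36 CPM at stage 3 and 40.6, 23.3, 14.5 and 16.5 CPM at stage 4. Its stage 4 values were all above its stage 3 values, with a fitted change of 2.81 ± 0.97 (p = 0.00758, unadjusted). Oocytes in which it reached 10 CPM numbered 3 of 11 at stage 3 and 10 of 11 at stage 4. NRDE2, a nuclear factor that acts with the RNA exosome, was at 0, 6.26, 0.725 and 1.77 CPM at stage 3 and 56.5, 10.3, 8.84 and 10.2 CPM at stage 4. It too had no overlap between the stages, and gilt 201 stood far above the other 3 at stage 4. The number of oocytes at 10 CPM or more was 2 of 11 and 9 of 11.

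TAF4B, a gonad-enriched subunit of the general transcription factor TFIID that the ovarian reserve depends on, was at 2.54, 2.73, 0.0659 and 4.92 CPM at stage 3 and 16.5, 41.7, 10.3 and 12.7 CPM at stage 4. Each gilt was higher at stage 4, with a fitted change of 3.19 ± 1.51, and the stages did not overlap. DNAH14, a dynein heavy chain, was at 1.84, 9.25, 8.11 and 3.81 CPM at stage 3 and 100.2, 23.5, 19.1 and 16.5 CPM at stage 4, again without overlap (2.99 ± 1.06). DDX60, an interferon-inducible RNA helicase, was the last of the most positive genes described here whose stages did not overlap, at 0.461, 1.89, 1.09 and 1.96 CPM at stage 3 and 50.5, 16.6, 3.31 and 5.07 CPM at stage 4. The fitted change of DDX60 was 3.22 ± 1.48, and gilts 801 and 803 moved by a few CPM only.

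A further 5 genes of the most positive were higher at stage 4 in every gilt but overlapped between the stages. RIF1, a telomere and replication-timing protein, was at 0, 1.52, 0.988 and 11.8 CPM at stage 3 and 25.6, 15.4, 9.61 and 35.8 CPM at stage 4 (3.19 ± 1.21). TERF1, which binds the double-stranded telomere repeat, was at 0.231, 0.946, 9.75 and 3.82 CPM at stage 3 and 42.5, 2.88, 17.2 and 42.8 CPM at stage 4 (2.99 ± 1.19). Both were highest at stage 4 in gilt 803. SLC5A6, a vitamin transporter, TIMM8A, a chaperone of mitochondrial protein import, and ZNF286A, a zinc finger protein, had fitted changes of 4.22 ± 1.39, 3.59 ± 2.01 and 2.94 ± 1.400. Stage 4 values of SLC5A6, TIMM8A and ZNF286A were highest in gilt 803, whose 4 stage 4 libraries are rich in granulosa markers. Each of these 11 genes kept a positive change when the granulosa-rich libraries were left out, with 1.62 for TERF1 the lowest and 10.4 for TIMM8A, at 0 CPM in the other 3 gilts at stage 3, the highest.

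DNAH7, another dynein heavy chain, was among the 8 smallest p-values without one direction in every gilt. Its level was 0.538, 0.526, 0.0329 and 4.07 CPM at stage 3 and 201, 15.8, 11 and 2.12 CPM at stage 4, and gilt 803 alone was lower at stage 4. The fitted change was 5.56 ± 1.68 (p = 0.00271, unadjusted), carried most of all by the single stage 4 oocyte of gilt 201.

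Several of the genes with the most negative changes were close to 0 at stage 4. LGALS3BP, a secreted glycoprotein that binds galectins, was at 16.9, 0.0526, 26 and 232 CPM at stage 3 and 0, 0, 0.0221 and 2.18 CPM at stage 4. It was lower at stage 4 in every gilt, but stage 3 of gilt 205 was itself near 0, so the stages overlapped. The fitted change was -8.14 ± 2.22 (p = 0.00109, unadjusted) and -8.78 without the granulosa-rich libraries. Of 11 oocytes, 4 reached 10 CPM at stage 3 and 1 at stage 4, and the edgeR quasi-likelihood fit without a low-count filter gave a Benjamini-Hochberg adjusted p of 2.18e-05.

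PDK4, the kinase that shuts the pyruvate dehydrogenase complex, had the smallest p of the genes with a symbol and at least 10 CPM. Its level was 118, 5.94, 0 and 762 CPM at stage 3 and 0.206, 0.196, 0.0627 and 7.42 CPM at stage 4. Gilts 201, 205 and 803 were lower at stage 4, and gilt 801, at 0 at stage 3, was a trace higher. The fitted change was -5.67 ± 1.35 (p = 0.000286, unadjusted), -4.57 without the granulosa-rich libraries, and 0.000711 was its Benjamini-Hochberg adjusted p in the edgeR quasi-likelihood fit without a filter. It reached 10 CPM in 6 of 11 oocytes at stage 3 and 1 of 11 at stage 4.

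STAR, which carries cholesterol into mitochondria for steroid synthesis, was at 1.92, 73.2, 11 and 2.34 CPM at stage 3 and 0, 1.18, 0.376 and 0 CPM at stage 4. This was the one gene of the 12 most negative whose stages did not overlap, with a fitted change of -5.73 ± 1.95. It belongs to the granulosa marker list, and its highest value, in gilt 205 at stage 3, came mostly from 1 oocyte, which held 61.4% of its CPM over the 11 stage 3 oocytes. TSPO, a cholesterol-binding protein of the outer mitochondrial membrane, was at 14.9, 6.36, 18.3 and 51.6 CPM at stage 3 and 0, 0, 0.667 and 10.2 CPM at stage 4 (-5.34 ± 1.72). INHA, a granulosa gene as well, had a fitted change of -3.66 ± 1.27 in the fit with the low-count filter. The summed granulosa marker level was lower at stage 4 in gilts 205 and 801, as given above, and its part in the levels of STAR, TSPO, INHA and LGALS3BP was not tested.

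COX4I2, an isoform of cytochrome c oxidase subunit 4, was at 49.4, 7.89, 132 and 192 CPM at stage 3 and 4.13, 0, 2.65 and 74.3 CPM at stage 4 (-4.73 ± 1.42). CTSV, a lysosomal cysteine protease, was at 13.4, 13.9, 174 and 395 CPM at stage 3 and 3.51, 0.588, 2.30 and 117 CPM at stage 4 (-4.21 ± 1.301). In both, gilt 803 had the highest value at either stage. APOA1, the main protein of high-density lipoprotein, was at 39.4, 73.9, 209 and 3380 CPM at stage 3 and 18.2, 0.850, 0.903 and 646 CPM at stage 4 (-4.12 ± 1.34), and 1 oocyte of gilt 803 held 83.1% of its CPM over the 11 stage 3 oocytes. The rest of the 12 most negative genes were TNFAIP8L3, PCED1B, GADD45B, TGFBI, ENC1 and STC1, with fitted changes from -5.65 ± 2.23 (TNFAIP8L3) to -4.003 ± 2.29 (STC1). Stage 4 levels of TNFAIP8L3, PCED1B and GADD45B were 40.5, 37.9 and 73.1 CPM in gilt 803 and under 1 CPM in each of the other 3 gilts.

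GJA1, the connexin that couples cumulus cells to each other, was at 4.46, 51.4, 123 and 726 CPM at stage 3 and 8.87, 1.37, 3.40 and 300.3 CPM at stage 4 (-3.52 ± 1.11), lower at stage 4 in 3 of 4 gilts. ST3GAL4, a sialyltransferase, was at 0.154, 48.8, 202 and 596 CPM at stage 3 and 1.65, 1.90, 4.45 and 67.3 CPM at stage 4 (-4.17 ± 1.28), and likewise only gilt 201 was higher. Without the granulosa-rich libraries these changes were -4.09 and -4.31. That fit still holds the stage 3 oocyte of gilt 801, with 20308 CPM of granulosa markers, and the granulosa marker list had a median of -2.95 in it. The part of granulosa messages in the levels of GJA1 and ST3GAL4 was not tested.

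**Figure D3:**
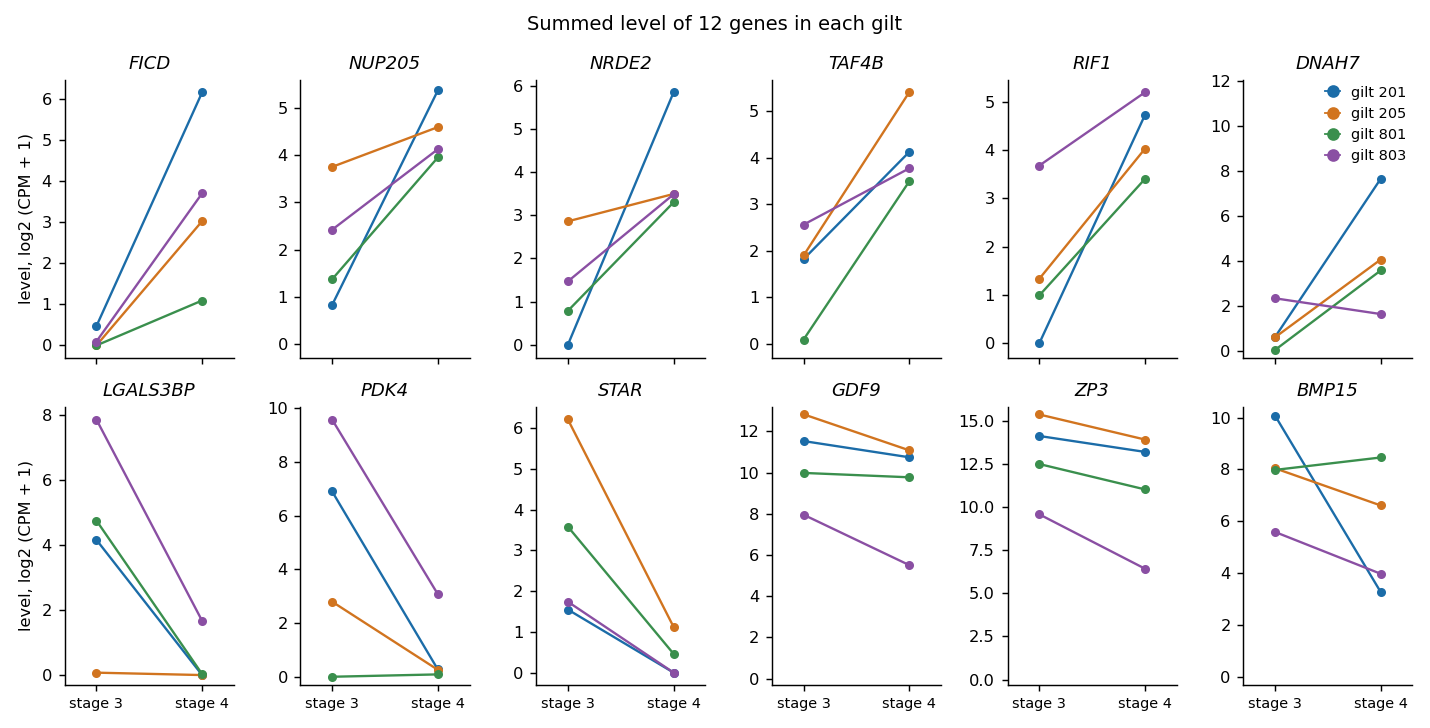
Summed level of 12 genes as log2 (CPM + 1) at stage 3 and stage 4, with 1 line per gilt and a separate vertical axis for each gene. In the upper row the lines go up except for DNAH7 in gilt 803; in the lower row they descend except for BMP15 in gilt 801 and PDK4 in gilt 801, where both values are close to 0.

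Presence across oocytes was counted beside the level. A gene was taken as present in an oocyte at 10 CPM or more of its nuclear-encoded counts. Averaged over gilts, the share of oocytes with the gene was at least 50 percentage points higher at stage 4 for 367 genes (2.35%) and at least 50 points lower for 11 (0.0703%). Among genes of at least 10 CPM with a higher share, the condensin subunit NCAPD3 reached 10 CPM in 1 oocyte at stage 3 and 7 at stage 4, the vesicle-tethering protein VPS11 in 3 and 10, and the ubiquitin ligase MEX3C in 4 and 9. The U6-associated splicing protein LSM8 did so in 4 and 11 oocytes and the deadenylase PARN in 4 and 9. Among those with a lower share, STAR went from 4 oocytes to 0, and the lysosomal thioesterase PPT1 and the ubiquitin ligase subunit WDR26 both from 11 to 7. Such counts over all 11 oocytes also reflect how many oocytes each gilt gave at each stage. These examples were picked after their values were seen.

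The number of genes present per oocyte moved with this count. It averaged 3237 over the 4 stage 3 oocytes of gilt 201, from 2791 to 4081, and was 7018 in its single stage 4 oocyte. Gilt 205 averaged 5357 and 6458 genes, gilt 801 had 7814 and 7819, and gilt 803 had 6079 and 5592.5. Without gilt 201 the shares differed by at least 50 points for 206 genes higher and 114 lower. Thinning every oocyte to 500000 nuclear-encoded counts left 371 higher and 17 lower. The lean towards presence at stage 4 is thus far stronger with gilt 201 than without it and stays with equal depth.

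**Figure D4:**
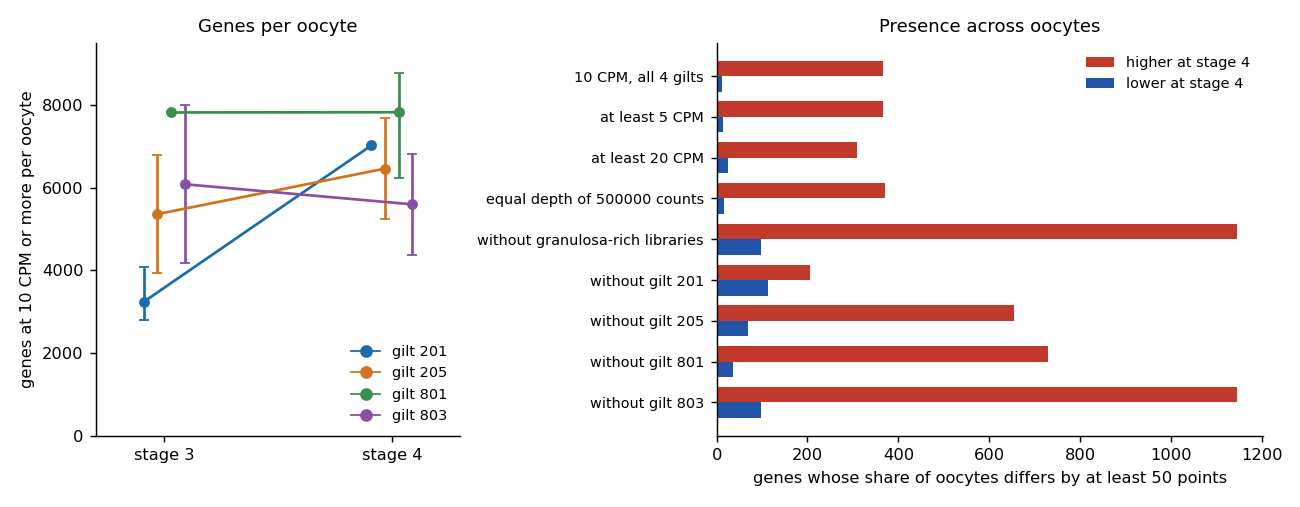
Left, the number of genes at 10 CPM or more per oocyte at each stage, as the mean of each gilt with bars from its lowest to its highest oocyte. Right, the number of genes whose share of oocytes differed by at least 50 points between the stages, as the mean of gilts, in red where higher and in blue where lower at stage 4. All settings give more red than blue, and the gap is smallest without gilt 201, at 206 against 114.

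The genes that make an egg coat and signal to the follicle had a median change below that of all genes. Of 13 tested genes of the zona pellucida, oocyte growth factors and oocyte transcription factors, 9 had a negative and 4 a positive change, with a median of -1.12, and 4 were lower in 4 of 4 gilts (30.8%). The share with a positive change, 30.8%, was near that of all genes of at least 10 CPM. By library totals the list's median was -0.26, and 1 member was lower and 1 higher in 4 of 4 gilts. None passed the test. GDF9, the oocyte growth factor that acts on granulosa cells, was at 2947, 7247, 1009 and 246 CPM at stage 3 and 1708, 2158, 871 and 44.5 CPM at stage 4. It was lower in each gilt with TMM factors, with wide overlap between gilts of the 2 stages, and its fitted change was -1.22 ± 0.79. With library totals gilt 801 was higher at stage 4, at 1825 CPM at stage 3 and 2939 CPM at stage 4. ZP3, a zona pellucida glycoprotein, was at 17662, 41867, 5728 and 759.7 CPM at stage 3 and 9319, 15309, 2068 and 84.8 CPM at stage 4. ZP3 was lower in each gilt under both scalings (-1.58 ± 0.93), and in gilt 803 both GDF9 and ZP3 were far below the other gilts at both stages.

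BMP15, the partner of GDF9, was at 1078, 263, 252 and 47.2 CPM at stage 3 and 8.66, 96.8, 351 and 14.8 CPM at stage 4. It was higher at stage 4 in gilt 801 and lower in the others, most so in gilt 201, and its fitted change was -2.49 ± 1.17 (p = 0.0433, unadjusted), or -0.39 without gilt 201. KIT, the receptor for the granulosa-derived KIT ligand, was at 67.2, 347, 227 and 581 CPM at stage 3 and 212, 47.3, 38.4 and 49.3 CPM at stage 4 (-1.85 ± 0.82). It was lower in 3 gilts and higher in gilt 201, and its change was -0.87 without the granulosa-rich libraries. TAF4B, described above, was the list member with the most positive change.

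The subcortical maternal complex and other maternal-effect genes, whose products the early embryo needs, had a median of -0.56 over 10 genes, 7 of them negative, and 0 were lower in every gilt. The 30% that were positive are close to the share among all genes of at least 10 CPM, and the list's median was 0.35 with library totals. BTG4, which brings the deadenylase to maternal mRNA, was at 1476, 386, 498 and 74.1 CPM at stage 3 and 246, 145, 633 and 73 CPM at stage 4 (-1.21 ± 0.74). ZAR1L, a relative of the egg protein ZAR1, was at 649.6, 225, 166 and 60.2 CPM at stage 3 and 40.6, 136, 390.1 and 40.9 CPM at stage 4 (-1.04 ± 0.87). Both were lower at stage 4 in gilts 201, 205 and 803 and higher in gilt 801. Without gilt 201 the change of ZAR1L turned to 0.25.

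Genes that hold or release the meiotic arrest did not lean one way. Maturation-promoting factor and meiotic resumption genes had a median of -0.17 over 28 genes (13 positive, 15 negative), close to that of all genes. Of these, 3 were higher (10.7%) and 0 lower in 4 of 4 gilts. CCNB1, the cyclin of maturation-promoting factor, was at 359.6, 153, 111 and 63 CPM at stage 3 and 56.9, 57.8, 162 and 45 CPM at stage 4 (-1.16 ± 0.698). MOS, the kinase that feeds the meiotic MAP kinase cascade, was at 689, 323, 368 and 137 CPM at stage 3 and 66, 238, 534 and 41.2 CPM at stage 4 (-1.21 ± 0.803). For both, gilt 801 was higher at stage 4 and the other 3 gilts lower, and the changes did not exceed the spread between gilts.

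The cyclic AMP and protein kinase A genes of the arrest had a median of -0.198 (12 positive and 13 negative of 25). PRKAR2B, a regulatory subunit of protein kinase A, was at 17.4, 31.4, 43.7 and 61.6 CPM at stage 3 and 0, 3.53, 3.04 and 95.8 CPM at stage 4 (-2.41 ± 1.11), lower except in gilt 803. AKAP1, which anchors that kinase to mitochondria, was -3.23 ± 2.24, with 2 gilts in each direction, and -0.11 without gilt 201. Calcium, egg activation and sperm-binding genes had a median of -0.14 over 30. ASTL, the cortical granule protease that cleaves ZP2, was at 336, 750.5, 331 and 41.3 CPM at stage 3 and 127, 243, 75.9 and 0.469 CPM at stage 4 and lower in each gilt (-2.05 ± 1.05). CALM2, a calmodulin gene, was lower in each gilt with TMM factors (-0.96 ± 0.59) and in 2 of 4 with library totals.

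Spindle, kinetochore and checkpoint genes had a median of -0.01 over 41, with 19 positive and 22 negative. Of these, 4 were higher (9.76%) and 2 lower (4.88%) in 4 of 4 gilts. CENPU, a centromere protein, was at 83.3, 52.7, 75.5 and 19.4 CPM at stage 3 and 12.2, 16.7, 44.7 and 13.2 CPM at stage 4 (-1.63 ± 0.86) and CENPF, a kinetochore protein, had a change of -2.52 ± 1.26. Meiotic cohesin and recombination genes were the list with the highest median, 0.55, with 18 of 26 positive. The list's median within single gilts, as log2 (CPM + 1), was 0.15, 0.098, 0.69 and 0.18. With TMM factors 1 member was higher and 1 lower in every gilt. With library totals 7 were higher and 0 lower in every gilt, beside 1676 and 199 of all 15637 genes tested. SYCP2, an axial element protein of the synaptonemal complex, was at 2.38, 11.4, 18.8 and 14.5 CPM at stage 3 and 159, 19.7, 13.5 and 10.8 CPM at stage 4 (2.43 ± 1.31), and its change was 0.14 without gilt 201. NIPBL, which loads cohesin on chromosomes, was at 102, 21.9, 12 and 32.8 CPM at stage 3 and 9.49, 11.2, 16.1 and 27.4 CPM at stage 4 (-1.295 ± 0.98), and -0.18 without gilt 201.

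Lists of the translation machinery had medians below that of all genes in the reported fit. Cytosolic ribosomal protein genes had a negative change in 43 of 47 cases with a median of -1.04, and 20 were lower and 0 higher in 4 of 4 gilts (42.6% lower, beside 8.84% of all genes of at least 10 CPM). With library totals 1 was lower and 1 higher in 4 of 4 gilts, and with the mean of log2 values over oocytes the median was -0.10 beside 0.18 over all genes. Measured against the median of all genes, the list stood at -0.92 and -0.94 with TMM factors and with library totals. RPLP0, a protein of the ribosomal stalk, was at 359.6, 242, 497 and 1829 CPM at stage 3 and 118, 19.7, 103 and 1269 CPM at stage 4 (-1.83 ± 0.73). It was lower in each gilt with TMM factors, and gilt 803 was highest at both stages. With library totals gilt 803 was higher at stage 4, at 2902 CPM at stage 3 and 3320 CPM at stage 4. RPL6, of the large subunit, was at 124, 111, 239 and 955 CPM at stage 3 and 68.3, 36.2, 63.7 and 550.3 CPM at stage 4 (-1.296 ± 0.63). The median within single gilts, as log2 (CPM + 1), was -0.50, -1.28, -1.86 and -0.13 with TMM factors and 0, -0.99, -0.99 and 0.56 with library totals, so only gilts 205 and 801 were lower under both. Ribosomal protein genes have many near-identical copies in mammalian genomes, so reads of single members may be split among copies, as may those of CALM2 and of the related proteases CTSV and CTSL.

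Translation initiation and elongation factors were negative in 35 of 39 with a median of -0.57, 7 of them lower in 4 of 4 gilts. By library totals 2 were lower and 1 higher in 4 of 4 gilts. EIF4A1, the helicase of cap-dependent initiation, was at 310.0, 52.1, 98.2 and 533 CPM at stage 3 and 37.5, 31.2, 47.1 and 323 CPM at stage 4 (-1.26 ± 0.65). ETF1, the release factor that reads stop codons, was lower in each gilt too (-1.54 ± 0.77). Genes of maternal mRNA storage stood closer to all genes, with a median of -0.27 over 36. DDX6, a helicase of stored messenger particles, was at 6.23, 32.8, 19.7 and 30.9 CPM at stage 3 and 72, 95.2, 16.4 and 47.5 CPM at stage 4 (1.38 ± 0.82), higher in 3 gilts. PABPC1, the cytoplasmic poly(A)-binding protein, had 2 gilts in each direction (-1.54 ± 0.94).

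Deadenylation and decay genes had a median of -0.31 over 37. PARN was at 5.00, 13.6, 2.47 and 3.71 CPM at stage 3 and 8.87, 7.52, 15.6 and 64.9 CPM at stage 4 (1.698 ± 0.98), higher at stage 4 except in gilt 205, and 0.74 without the granulosa-rich libraries. PAN2, the catalytic subunit of another deadenylase, was higher in each gilt (1.59 ± 1.08), and this became -0.03 without the granulosa-rich libraries. Splicing genes had a median of -0.27 over 40, and HNRNPU, a nuclear RNA-binding protein, had a change of -1.12 ± 0.64. PRPF3, a protein of the U4/U6 particle, had a change of -1.56 ± 0.84.

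Mitochondrial and energy genes split by kind. All 13 mitochondrially encoded protein genes had a negative change, with a median of -1.101, and 12 were lower in 4 of 4 gilts. COX2, a subunit of cytochrome c oxidase, was at 256020, 135670, 28585 and 15033 CPM at stage 3 and 102210, 119590, 7228 and 2354 CPM at stage 4 (-1.302 ± 0.95). ND4L, a subunit of complex I, was at 54399, 32871, 4318 and 2890 CPM at stage 3 and 16836, 29396, 1130 and 499 CPM at stage 4 (-1.28 ± 0.94). These genes share 1 genome and are not separate evidence. Their unscaled share of counts, given above as a mean over oocytes, was slightly higher at stage 4 in gilts 201 and 205. With library totals, COX2 and ND4L stayed lower at stage 4 in gilt 201 and were higher in gilt 205. The list's median in these gilts was then -0.073 and -0.063, as log2 (CPM + 1), and 2 of the 13 genes were lower in 4 of 4 gilts. How many of these genes were lower in every gilt thus depends on TMM scaling, whose factors were higher at stage 4 in each gilt.

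Nuclear-encoded oxidative phosphorylation genes were negative in 51 of 61 with a median of -0.51. In every gilt 9 were lower (14.8%) and 0 higher with TMM factors, and 2 lower and 2 higher with library totals. Mitochondrial ribosomal proteins did not share the negative median of the reported fit to this extent, at -0.04 over 62 genes. MRPL38, of the large mitochondrial subunit, was at 4.61, 3.84, 3.23 and 3.06 CPM at stage 3 and 43.5, 8.24, 7.72 and 35.5 CPM at stage 4 and did not overlap between the stages (2.17 ± 0.95, p = 0.0305, unadjusted). MRPS30 was lower in each gilt with TMM factors (-1.45 ± 0.84). The tricarboxylic acid cycle list had a median of -0.21 over 30, with PDK4 the most negative and OGDH, a subunit of the 2-oxoglutarate dehydrogenase complex, at -1.86 ± 0.96, or -0.76 without the granulosa-rich libraries.

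Oocytes use little glucose themselves and are known to receive the products of glycolysis from cumulus cells. Glycolysis and pentose phosphate genes had the lowest median of the role lists, -1.56, with 21 of 26 negative and 5 lower in 4 of 4 gilts. By library totals 0 were lower and 1 higher in 4 of 4 gilts. LDHA, which interconverts pyruvate and lactate, was at 37.7, 35.5, 1037 and 926 CPM at stage 3 and 3.92, 8.50, 31.7 and 575 CPM at stage 4 (-2.51 ± 0.99). PKM, pyruvate kinase, was at 20.2, 139.7, 789.7 and 4006 CPM at stage 3 and 123, 26.6, 14.8 and 1966 CPM at stage 4 (-2.51 ± 1.05). On the log2 scale the largest differences of both were in gilt 801. Its single stage 3 oocyte had 20308 CPM of granulosa markers, beside a mean of 3789 CPM over its 4 stage 4 oocytes. The 2 stage 4 oocytes with the most counts, which weigh most in the sum, had 93.3 and 94.6 CPM of these markers. Within gilts the list's median was -0.06, -0.69, -2.58 and -0.50, and the part of granulosa messages in it was not tested.

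Cholesterol and isoprenoid genes, a pathway that cumulus cells also run on the oocyte's behalf, were negative in 23 of 31 with a median of -0.94. IDI1, isopentenyl diphosphate isomerase, was at 24.1, 29.9, 51.9 and 291 CPM at stage 3 and 41.3, 4.44, 14 and 48.7 CPM at stage 4 (-1.605 ± 0.702), and its change was -0.90 without the granulosa-rich libraries. SCARB1, the receptor for high-density lipoprotein, was at 6.07, 4.31, 65 and 475 CPM at stage 3 and 16.1, 0.327, 1.12 and 138 CPM at stage 4 (-3.45 ± 1.695), with gilt 803 highest at both stages. Its change was -0.99 without gilt 801, whose stage 3 value is 1 oocyte. Fatty acid and lipid droplet genes had a median of 0.12 over 42. HADHB, of the mitochondrial trifunctional protein, was lower in each gilt with TMM factors (-2.27 ± 0.905), while PPARD, a lipid-sensing nuclear receptor, had a change of -1.75 ± 1.13 that became 0.02 without gilt 201.

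Protein-folding and turnover lists had medians below that of all genes in the reported fit. Heat shock proteins and endoplasmic reticulum chaperones were negative in 38 of 42 with a median of -0.604. In 4 of 4 gilts 13 were lower (31%) and 0 higher with TMM factors, and 3 lower and 2 higher with library totals. PDIA6, a protein disulfide isomerase, was at 487, 119.5, 213 and 491 CPM at stage 3 and 23.7, 30.9, 65.5 and 279.8 CPM at stage 4 (-1.87 ± 0.75). P4HB, another disulfide isomerase, was lower except in gilt 201 (-1.77 ± 0.84). FICD, which acts on the chaperone BiP of this compartment, had the opposite sign.

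Proteasome genes were negative in 27 of 34 with a median of -0.53, and PSMD14, the deubiquitinase of its lid, was at 47.6, 23.7, 38 and 61.5 CPM at stage 3 and 0.825, 7.84, 23 and 37.1 CPM at stage 4 (-1.52 ± 0.83). PSMD5, an assembly chaperone, was lower in 3 gilts (-1.82 ± 1.001). Autophagy and lysosome genes had a median of -0.48 over 45. CTSL, a lysosomal protease, was at 11.2, 50.4, 31 and 57 CPM at stage 3 and 0.206, 1.44, 0.144 and 91.7 CPM at stage 4 (-3.503 ± 1.42), higher only in gilt 803, and CTSD was -1.98 ± 0.795. Redox genes had a median of -0.51 over 33, with 7 lower (21.2%) in every gilt. By library totals 1 was lower and 2 higher in every gilt. GSTA4, a glutathione transferase, was at 205, 92, 133 and 457 CPM at stage 3 and 117, 9.61, 10.5 and 294 CPM at stage 4 (-2.002 ± 0.798), and NQO1, a quinone reductase, had a change of -3.22 ± 1.38. Immediate early, stress and apoptosis genes had a median of -0.63 over 31, and CDKN1A, the cell cycle inhibitor p21, was lower in each gilt (-2.604 ± 1.25).

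Most of these medians changed sign with the processing. With library totals in place of TMM, whose median over all genes is 0.58, the lists with a negative median that stayed negative were glycolysis (-1.10), mitochondrially encoded proteins (-0.60), ribosomal proteins (-0.36), the zona and growth factor list (-0.26), gap junctions (-0.20), cholesterol (-0.17) and immediate early genes (-0.14). The other 22 turned positive, among them translation factors (0.07), oxidative phosphorylation (0.25), the proteasome (0.24), redox genes (0.17), autophagy (0.23), splicing (0.40) and deadenylation (0.30), and chaperones were at 0.00. The mean of log2 values over oocytes also leaves out TMM factors, and its median over all genes is 0.18. Lists that stayed negative with it were mitochondrially encoded proteins (-0.85), the zona list (-0.43), glycolysis (-0.29), the maternal-effect list (-0.26), ribosomal proteins (-0.10), DNA methylation (-0.04) and translation factors (-0.03). Oxidative phosphorylation (0.27), the proteasome (0.19), chaperones (0.08), cholesterol (0.06) and redox genes (0.02) were among the 22 that turned positive. Relative to all genes the 2 scalings gave -0.45 and -0.51 for translation factors, -0.39 and -0.33 for oxidative phosphorylation, -0.41 and -0.34 for the proteasome and -0.48 and -0.58 for chaperones. The same pair of relative medians was -1.44 and -1.68 for glycolysis, -0.995 and -0.83 for the zona and growth factor list and 0.67 and 0.67 for cohesin and recombination. All of these are taken against the median of all genes tested, -0.12 with TMM factors. The median of genes of at least 10 CPM, -0.36 with TMM factors, lay nearer to the translation factor, oxidative phosphorylation, proteasome and chaperone lists.

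**Figure D5:**
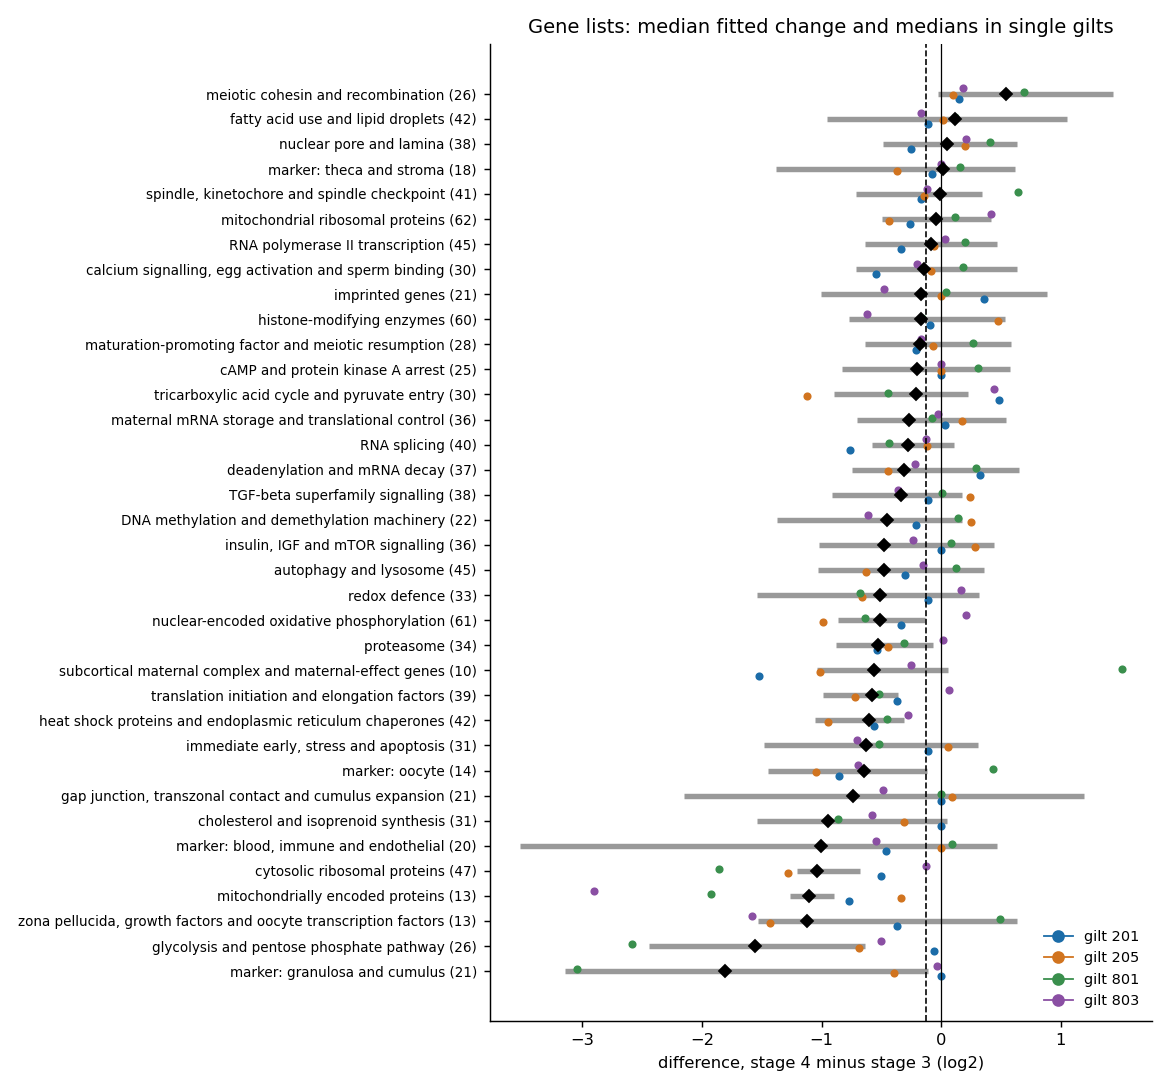
Gene lists ordered by the median fitted change from stage 3 to stage 4 in log2 units (black diamonds), with the interquartile range of members as grey bars and the number of members tested in brackets. Coloured points are the medians of log2 (CPM + 1) differences within single gilts, the solid line is 0 and the dashed line the median of all genes at -0.12. Granulosa and cumulus markers, glycolysis and the zona list lie lowest, cohesin and recombination highest, and gilts often stand on both sides of the median.

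Among chromatin and nuclear lists, DNA methylation genes had the lowest median, -0.46 over 22, 0 of them in one direction in every gilt. DNMT1, the maintenance DNA methyltransferase that oocytes store in bulk, was at 11338, 1698, 1443 and 1050 CPM at stage 3 and 1304, 1750, 3676 and 815 CPM at stage 4. Its change of -0.99 ± 0.88 rested on gilt 201, where 4 stage 3 oocytes were set against 1, and without that gilt it was 0.53. UHRF2, a ubiquitin ligase that reads DNA methylation, was at 504, 353, 255 and 164 CPM at stage 3 and 217, 405, 290.2 and 56.6 CPM at stage 4 (-0.499 ± 0.72), with 2 gilts in each direction.

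Histone-modifying enzymes had a median of -0.17 over 60. HDAC1, a histone deacetylase, was at 57.6, 15.5, 33.5 and 489.7 CPM at stage 3 and 5.57, 7.45, 9.24 and 173 CPM at stage 4 (-1.79 ± 0.82), lower in each gilt and highest by far in gilt 803. KMT2B, the methyltransferase that marks oocyte chromatin at histone H3 lysine 4, had a change of -2.64 ± 1.404, with 388 CPM at stage 3 in gilt 201. Imprinted genes had a median of -0.17 over 21. NAP1L4, a histone chaperone, was higher in each gilt (0.89 ± 0.71), and SGCE, a sarcoglycan, was higher in gilt 201 and lower in the rest (-2.33 ± 1.24).

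Nuclear pore and lamina genes had a median of 0.05 over 38, and 4 were higher (10.5%, beside 3.25% of all genes of at least 10 CPM and 4.83% of all genes) and 0 lower in 4 of 4 gilts. Other lists had similar shares higher in every gilt, among them insulin, IGF and mTOR (11.1%), maturation-promoting factor (10.7%), tricarboxylic acid cycle (10%) and spindle genes (9.76%). Besides NUP205, NUP133 of the outer ring was at 4.15, 6.99, 10.9 and 11.3 CPM at stage 3 and 25.6, 12.7, 29.1 and 22.1 CPM at stage 4 and did not overlap between the stages (1.42 ± 0.81). RNA polymerase II transcription genes had a median of -0.09 over 45. MED6, a Mediator subunit, was at 47.6, 29.3, 21.4 and 15.8 CPM at stage 3 and 5.36, 6.54, 40.2 and 4.95 CPM at stage 4 (-1.71 ± 0.94), and GTF2F1, a subunit of the general factor TFIIF, had a change of -1.496 ± 0.86; both were higher only in gilt 801.

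Genes through which oocyte and follicle cells signal to each other had wide differences between gilts. Gap junction, transzonal contact and cumulus expansion genes had a median of -0.74 over 21. It was 0.47 without gilt 803 and -0.21 without the granulosa-rich libraries. Within single gilts, as log2 (CPM + 1), the list's median was 0, 0.091, 0 and -0.48. CDH2, N-cadherin, was at 6.15, 5.36, 60.6 and 739 CPM at stage 3 and 16.9, 0.131, 2.72 and 165 CPM at stage 4 (-2.62 ± 1.24). TGF-beta superfamily genes had a median of -0.34 over 38. FST, the activin-binding protein follistatin, was at 16.7, 77.2, 414 and 144 CPM at stage 3 and 20.2, 1.70, 12.3 and 221 CPM at stage 4 (-3.14 ± 1.28), with 2 gilts in each direction. ID2, a target of bone morphogenetic protein signals, had a change of -2.91 ± 1.596 and was higher at stage 4 in gilt 201 only. Insulin, IGF and mTOR genes had a median of -0.47 over 36, with EIF4EBP1, the repressor of cap-dependent translation, at -1.498 ± 0.83 and IGFBP7, an IGF-binding protein, at 1.76 ± 1.096. IGFBP7 was higher in each gilt, at 8.22, 0.578, 3.29 and 6.77 CPM at stage 3 and 55.3, 4.12, 7.55 and 10.5 CPM at stage 4.

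The marker lists, read gene by gene in the same fit, had medians of -1.81 for granulosa and cumulus (16 of 21 negative), -0.64 for oocyte (11 of 14), 0.02 for theca and stroma (9 of 18) and -1.01 for blood, immune and endothelial genes (14 of 20). Without the granulosa-rich libraries the granulosa median was -2.95 and the oocyte median -0.68. Oocyte and granulosa markers thus both had medians below that of all genes, and with library totals these were 0.03 and -1.23. In bulk sums of this kind, fewer granulosa cells attached to an oocyte and less RNA per attached cell cannot be told apart.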

How the data were processed

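The cytoplasmic RNA of single oocytes was read with Smart-seq2, with 16 cycles of cDNA amplification per the labels' protocols. The authors deposited raw, unnormalized counts for each Ensembl ID. HISAT2 2.1.0, StringTie 1.2.2, featureCounts and Trim Galore 0.4.3 are named in the submitters' processing notes. What each did, the genome build, the annotation and the strand setting are not given in these sources, and no gene positions are stated. A further deposited table of length-scaled values, whose unit per oocyte the authors do not state, served as an alternative only, over 23498 genes. Of 25880 IDs, 14856 were paired with a symbol.

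The counts of a gilt's oocytes were added up within each stage. The sums of all 5 stages were fitted together in edgeR 4.0.16 under R 4.3.3 (glmQLFit and glmQLFTest after filterByExpr, with TMM factors and with stage and gilt as terms), so that they shared an estimate of the spread. Genes with a two-sided Benjamini-Hochberg adjusted p under 0.05 were called. The fit was also run on simulated counts that held no differences between gilts or in library make-up. That run cannot show how well the fit suits these sums. Library measures were tested by permuting oocytes within gilts over all 10500 arrangements. Oocytes of a gilt are the units of these p-values, which therefore do not measure the spread between gilts. Gilt was kept in the model because its oocytes come from 1 animal. Deviations from the stage means correlated between the stages at 0.067 (gilt 201), 0.21 (gilt 205), 0.053 (gilt 801) and 0.37 (gilt 803), beside -0.059 for different gilts. The labels name no batch or date. Reads carry no molecular identifiers, so counts include PCR copies.

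Named genes had a symbol and a mean of at least 10 CPM over the 8 sums. They are the 12 most positive and 12 most negative changes with 1 direction in all 4 gilts, the 8 smallest p-values, the 2 smallest p-values of each of 32 role lists with at least 5 tested members, and always GDF9, BMP15, ZP3, CCNB1, MOS and DNMT1; some genes that the rule reaches are not reported here. The comparison, lists, rule and most alternatives were chosen with earlier results of these data known. Presence across oocytes, its alternatives and directions within gilts by library totals were added after the counts were seen. No list was tested. DESeq2 1.42.0 and limma 3.58.1 were alternatives.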

Additional observations from a re-analysis of the deposited data

Results flagged for a closer look

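In groups of 4 gilts, 15 of 192 sets of values had a gilt far from the other 3 by Dixon's gap test. Gene levels entered it as log2 (CPM + 1). Chance alone flags about 1 in 20 independent groups. Of the 192 sets, 178 were of named genes, picked from these same data and sharing libraries, so that rate is no baseline here. At stage 4, gilt 803 was far above the others for ZNF286A (57.1 CPM), LGALS3BP (2.18 CPM), TNFAIP8L3 (40.5 CPM), PCED1B (37.9 CPM), GADD45B (73.1 CPM), PDK4 (7.42 CPM) and HDAC1 (172.8 CPM). Its stage 4 oocyte markers were far below those of the other gilts (10.3 as a mean of log2 CPM over oocytes). At stage 3, gilt 803 was far above the others for SLC5A6 (3.28 CPM) and TIMM8A (24.9 CPM). The single stage 4 oocyte of gilt 201 was far above for NRDE2 (56.5 CPM) and KIT (211.6 CPM). Stage 4 of gilt 801 was far above for MED6 (40.2 CPM), and stage 4 of gilt 205 for KMT2B (21.7 CPM). Blood, immune and endothelial markers were far above in stage 3 of gilt 205 (9.38 as a mean of log2 CPM).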

How the results depend on the processing

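edgeR's quasi-likelihood test with a low-count filter, and limma, called 0 genes in every alternative run. DESeq2 called 267 and edgeR without that filter 14, and the cause was not tested. Genes at an unadjusted p under 0.05, 646 in the reported fit, numbered 302 with the 8 sums alone, 1695 with DESeq2, 181 at 10 CPM or more (fewer genes tested), 340 with means of log2 values over oocytes and 224 with the length-scaled table, and ran from 488 (without gilt 205) to 1214 (without gilt 803) with 1 gilt left out. With no replicate block, that is without gilt in the model, 0 genes were called and 937 had an unadjusted p under 0.05, so the paired fit changed no call.

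Changes of the 89 named genes kept their sign except UHRF2 (0.1087 with library totals), PAN2 (-0.0331 without granulosa-rich libraries) and, with 1 gilt left out, DNMT1 (-1.7495 to 0.5285), PPARD (-2.6606 to 0.0200) and ZAR1L (-1.9972 to 0.2509). Differences in log10 total counts ran from -0.0631 to 0.0261 with 1 gilt left out, in theca markers from -0.778 to 0.0519 and in immune markers from -0.469 to 0.547, and with no replicate block they were 0.0459 for totals and -0.1055 for immune markers. No oocyte of stages 3 and 4 had under 1000000 counts, so leaving such oocytes out did not alter library measures.

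Genes whose share of oocytes was at least 50 points higher at stage 4 numbered 367 and lower 11. The counts lower were 25 at 20 CPM and 17 at equal depth. Without granulosa-rich libraries they were 1146 and 98, and with 1 gilt left out 206 to 1146 and 37 to 114, where shares over 3 gilts reach 50 points more easily. Genes higher in 4 of 4 gilts numbered 1676 and lower 199 with library totals, against 755 and 723 with TMM factors. The presence settings and this one were chosen after seeing the data.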
